A study of Mus musculus with 10 samples.

Results

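Thymus with a mutant p53 allele was compared with thymus that lacks p53, with mdm2 present in both, across all 23332 features of an expression array. The samples were the 6 of the 10 in the series whose titles give mdm2(+/+). Of these, 3 were p53(246/246), called mutant p53 here, and 3 were p53(-/-), called p53-null. Per the labels, the thymi were normal, the mice were aged 4 to 5 weeks, and the strain was C57BL6/129 hybrid. The labels do not give sex, litter or how the alleles were made, and no group had wild-type p53. The other 4 samples lacked mdm2, 2 with each p53 genotype. Replicate numbers came from the titles, and the labels do not say whether each replicate was a separate animal. The p-values therefore measure the spread between samples within groups, which may be technical. Unless stated otherwise, that spread was taken over all 10 samples, including the 4 without mdm2.

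p53 is a transcription factor that, when cells are stressed, activates genes of cell cycle arrest, DNA repair and apoptosis, among them Mdm2, whose product marks p53 for destruction. Missense mutants of p53 found in tumours usually bind its target sites poorly, and some have been credited with activities that a null allele lacks. In the thymus, p53 takes part in the death of thymocytes after DNA damage, and mice without p53 are known for thymic lymphoma. The comparison asks what the mutant allele adds to or takes from thymic expression beyond the loss of p53.

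The thymic label was borne out by the markers. Transcripts of double positive thymocytes, the main cells of the thymus, were among the strongest signals. On the log2 scale the co-receptor genes Cd8a and Cd4 lay at 12.74 to 12.80 and 11.09 to 11.36 over the 6 samples, and the recombinase gene Rag2 at 9.06 to 9.36. Foxn1 and Psmb11, made by thymic epithelium, lay at 6.54 to 6.88 and 8.27 to 8.82. Alb, a liver gene, lay at 3.99 to 4.24, below the lower quartile of each sample's values (4.30 to 4.45). No feature was annotated with Trp53 as its single symbol, so Trp53 itself was not examined by name. The p53 genotypes were taken from the labels.

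The groups were close to each other as a whole. Across features, samples of one group correlated at a median of 0.986 (Pearson, 6 pairs) and samples of different groups also at a median of 0.986 (9 pairs). The difference, mutant p53 minus p53-null, had a median of 0.002 over all features, a median size of 0.103 and a median standard error of 0.158, and 50.7% of features had a positive sign. By limma with Benjamini-Hochberg adjustment, 0 of 23332 features (0%) passed an adjusted p of 0.05, a feature past that threshold being called. The smallest adjusted p was 0.465. At an unadjusted p under 0.05 there were 690 features (2.96%), 315 higher (1.35%) and 375 lower (1.61%) with mutant p53, where chance would give 1167. A fit to the 6 samples alone called 1 feature (0.00429%), which has no gene symbol in the annotation, and 892 (3.82%) had an unadjusted p under 0.05. In simulated data of this design, with 200 features changed at once and independent noise, the test recovered 0% of features changed 1.5-fold. It recovered 53% of those changed 2-fold, with 5 of 111 calls false. Of those changed 4-fold it recovered 94%, with 19 of 207 calls false. The data held fewer small p-values than chance would give, so these recoveries may not carry over to them. Recovery after this adjustment depends on the number of features changed, and no other number was simulated.

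The intervals give, feature by feature, the differences that the spread between samples allows. As that spread may be technical, they may be too narrow for differences between animals. The 95% interval of the difference lay within 1 log2 unit of 0, a 2-fold difference, for 21026 features (90.1%). It lay within a 1.5-fold difference for 15009 (64.3%). A difference of 1 unit or more was measured for 70 features (0.3%), 30 higher and 40 lower, of which 14 had a single gene symbol and 27 had groups that did not overlap. A difference of 1.5-fold or more was measured for 546 (2.34%), with no overlap in 224. Over all features, all 3 mutant samples lay on one side of all 3 p53-null samples for 1790 (7.67%), 859 higher (3.68%) and 931 lower (3.99%).

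One library stood apart. In p53-null replicate 1 the Y-linked genes Eif2s3y and Kdm5d lay at 3.46 and 3.73, against 10.39 to 10.50 and 8.03 to 8.31 in the other 5 samples. Sry, the remaining measured gene of the Y-linked list, was not low there, at 5.399 against 4.545 to 5.272. Its values lay below the median of each sample (6.14 to 6.26). The mean of the 4 measured genes in the list of X inactivation and escape was 10.21 in this library. In the other 5 samples it was 9.81 to 9.89. The class II antigen presentation genes H2-Ab1 and H2-Aa were low in p53-null replicate 1, at 9.54 and 9.87 against 11.74 to 11.94 and 11.54 to 11.70. Retn, Adipoq and Thrsp, genes of fat cells, were high there, at 7.51, 7.68 and 7.45 against 4.78 to 5.33, 4.78 to 6.25 and 4.83 to 5.68. The mean of the 24 measured adipocyte genes was 6.74 in that library and 5.71 to 5.91 in the other 5. High values were also seen in the 4 samples without mdm2. There Retn was 5.629 to 7.315, Adipoq 6.319 to 8.37 and Thrsp 6.161 to 9.207. Without p53-null replicate 1, 0 features were called by limma and 525 (2.25%) had an unadjusted p under 0.05.

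**Figure D1:**
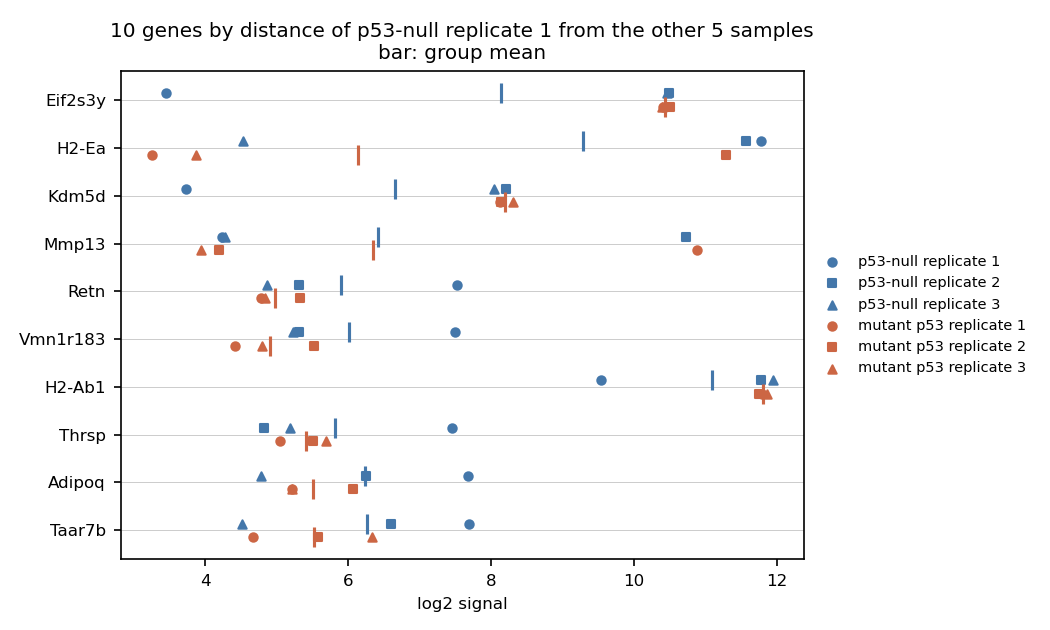
Log2 signal in each of the 6 samples for the 10 genes whose signal in p53-null replicate 1 lay farthest from the mean of the other 5. Points are samples and vertical bars are group means. The Y-linked genes Eif2s3y and Kdm5d and the fat cell genes set that library apart among these 6 samples, while H2-Ea and Mmp13 split both groups.

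A pair of genes switched between low and high within both genotypes. H2-Ea, which encodes a class II antigen presentation chain, was 11.77, 11.56 and 4.53 in the p53-null replicates and 3.25, 11.29 and 3.87 in the mutant replicates. Its difference of -3.15 had the largest size of all features and a 95% interval from -10.18 to 3.88. The collagenase gene Mmp13 was 4.24, 10.72 and 4.28 in p53-null and 10.88, 4.19 and 3.95 in mutant samples. Neither split followed the p53 genotype.

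Direct p53 targets did not differ detectably between mutant and null. Mdm2 was 9.49, 9.47 and 9.57 in p53-null and 9.61, 9.58 and 9.62 in mutant samples. The mutant samples were all higher, but by only 0.09 (SE 0.09, 95% interval -0.12 to 0.30, limma). The cell cycle inhibitor gene Cdkn1a was 6.19, 6.29 and 6.13 in p53-null and 5.75, 6.22 and 5.79 in mutant samples. The groups overlapped, and the difference was -0.29 (SE 0.19, 95% interval -0.72 to 0.14). Of 63 measured genes in 3 lists of p53 biology, 2 of targets and 1 of regulators and feedback genes, 0 were called. None had an unadjusted p under 0.05, beside 2.96% of all features, of which 0% were called. The intervals of 60 of them (95.2%) lay within a 2-fold difference and those of 50 (79.4%) within a 1.5-fold difference, against 90.1% and 64.3% of all features. For the 45 genes of the 2 target lists alone, the intervals of 42 (93.3%) lay within a 2-fold difference. Those of 32 (71.1%) lay within a 1.5-fold difference, nearer the share of all features. In both sets the exceptions to the 2-fold bound were Cdkn2a, Ddit4 and Siva1.

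Among the arrest and stress targets, 29 of 31 listed genes were measured, 17 with a positive and 12 with a negative sign, and the median difference was 0.02. The sestrin gene Sesn2, which restrains mTORC1, was 4.86, 5.13 and 5.30 in p53-null and 5.53, 5.20 and 5.62 in mutant samples, a difference of 0.35 with overlapping groups (0.23 without p53-null replicate 1). Ddit4, which encodes another mTORC1 inhibitor and also responds to glucocorticoids, was 8.52, 8.68 and 9.54 in p53-null and 10.19, 9.75 and 9.78 in mutant samples. The groups did not overlap, but the 95% interval of its difference of 0.99 ran from -0.39 to 2.38. The cyclin gene Ccng1 differed by -0.12, the antiproliferative gene Btg2 by 0.06 and Zmat3, which encodes an RNA-binding protein, by -0.06. Cdkn2a, which encodes the tumour suppressors p16 and Arf, was 6.37 in p53-null replicate 1 and 4.96 to 5.50 in the other 5 samples. Its difference of -0.29 became 0.14 without that replicate.

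Among the apoptosis targets, 16 of 19 were measured, 6 with a positive and 10 with a negative sign, and the median was -0.01. Bbc3, which encodes the BH3-only killer protein Puma, was 5.15, 5.21 and 5.42 in p53-null and 5.67, 5.33 and 5.60 in mutant samples. Its groups overlapped at a difference of 0.28 (95% interval -0.15 to 0.70). Pmaip1, which encodes Noxa, differed by -0.11 and the death receptor gene Fas by 0.18, which were -0.18 and 0.11 without p53-null replicate 1, and Perp, a membrane protein gene of p53-driven death, by -0.28. Siva1 differed by 0.57, with 10.40 in mutant replicate 3 and 8.99 to 9.65 in the other 5 samples. In the list of p53 regulators and feedback genes, 19 of 25 were measured and the median was 0.04. Sirt1, which encodes a deacetylase that acts on p53, differed by 0.17, the checkpoint kinase gene Chek1 by 0.16 and Rchy1, which encodes a ubiquitin ligase for p53, by 0.13. None of these differences passed the test.

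**Figure D2:**
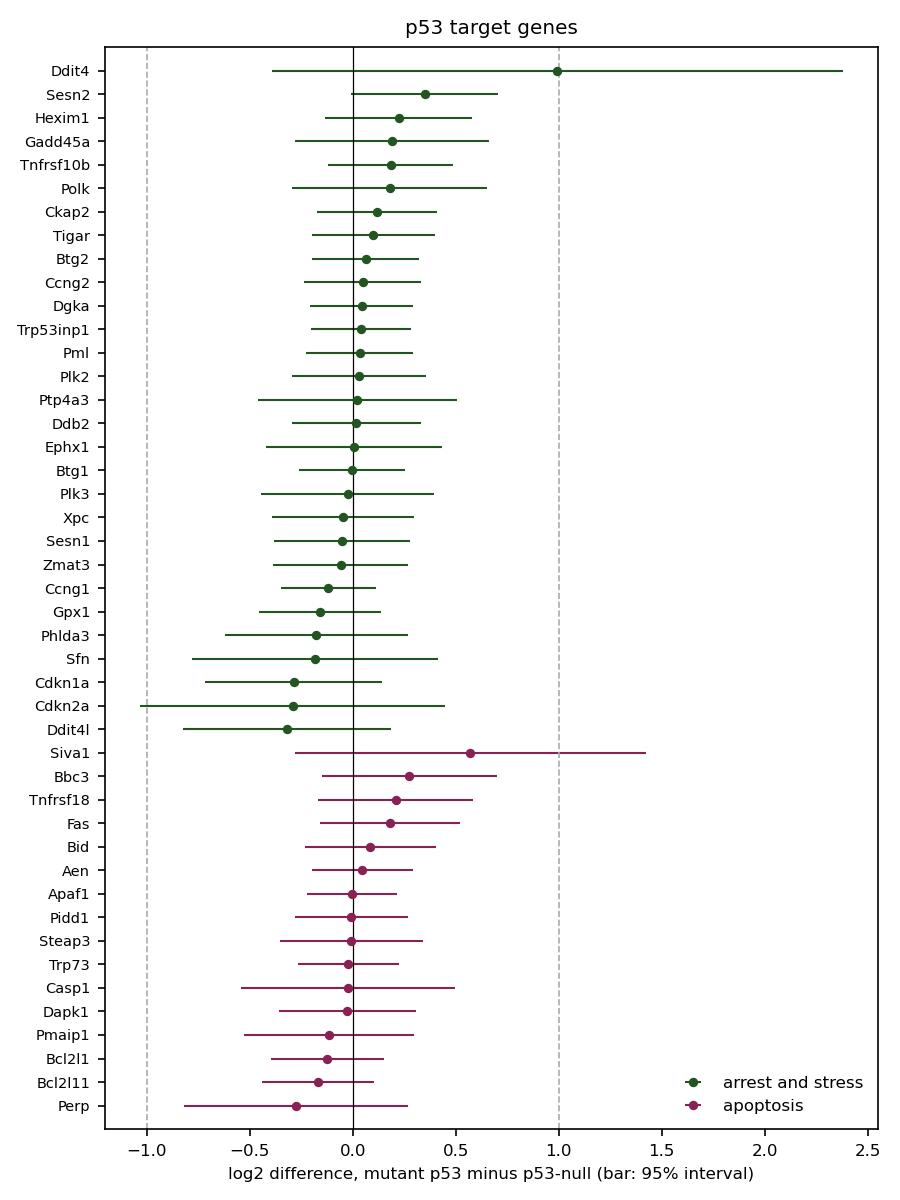
Log2 difference, mutant p53 minus p53-null, with its 95% interval for the 45 measured p53 target genes, in 2 lists sorted by difference. Dashed lines mark a 2-fold difference, within which 42 of the 45 intervals lie.

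Of these p53 genes, 4 of the 54 with a promoter window (7.41%) carried a match to the p53 consensus full site. The windows ran from 250 bases before to 50 after each gene start, on both strands, with at most 2 mismatches in 20 bases. Over all genes with a window, 106 of 27025 (0.392%) held one. The 4 matches are shown because they are the letters closest to the p53 consensus among these genes. Capitals mark the 4-base core of each half-site, and the sequences are RefSeq's for build GRCm38.p6.
Ccng1, chr11:40755462-40755481, minus strand: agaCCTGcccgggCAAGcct
Cdkn1a, chr17:29090928-29090947, plus strand: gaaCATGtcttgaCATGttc
Ckap2, chr8:22186003-22186022, minus strand: agaCATGtcctgaCTTGtca
Trp73, chr4:154097220-154097239, minus strand: gggCAAGctgaggCCTGccc
The first 2 had 1 mismatch each and the others 2. A match is a description of the letters and not evidence of binding. The differences of these genes were -0.12 for Ccng1, -0.29 for Cdkn1a, 0.12 for the microtubule gene Ckap2 and -0.02 for Trp73, which encodes the p53 relative p73. None passed the test.

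The gene with the smallest p was Prag1, which encodes a pseudokinase that acts in cytoskeletal signalling. It was 5.74, 5.94 and 5.69 in p53-null and 6.74, 7.21 and 7.35 in mutant samples, without overlap. The difference of 1.31 (SE 0.16, 95% interval 0.95 to 1.68) did not pass (limma, Benjamini-Hochberg adjusted p = 0.465). Without mdm2 it was 6.82 and 6.88 in p53-null and 6.88 and 6.81 in mutant samples, where no such gap was seen. The difference between mdm2 backgrounds did not pass either (adjusted p = 0.995).

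The next genes on the higher side had adjusted p of 1.0 by limma with Benjamini-Hochberg adjustment, and in each the groups did not overlap. Rab27a, which encodes a small GTPase of secretory and lytic granules, was 8.18, 8.37 and 8.30 in p53-null and 8.96, 8.88 and 8.75 in mutant samples, a difference of 0.58. Myo19, the gene of a mitochondrial myosin, differed by 0.83, from 5.87, 5.91 and 6.17 to 6.25, 6.99 and 7.20. St6galnac3, which encodes a sialyltransferase, differed by 0.77. The ribosomal protein gene Rpl37, a gene with many processed copies whose probes may not be separate, differed by 0.56. The remaining ones were the olfactory receptor gene Olfr924 at 0.49, the homeobox repressor gene Tgif2 at 0.47, Wdr25 at 0.44, the villin gene Vil1 at 0.44 and the NMDA receptor gene Grin2c at 0.42. Mean signals of Wdr25, Grin2c, St6galnac3, Vil1 and Olfr924 were at most 5.05 in either group.

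On the lower side the smallest p belonged to Eri2, a gene of the exonuclease family. It was 8.50, 8.93 and 8.52 in p53-null and 7.92, 7.93 and 7.75 in mutant samples, a difference of -0.78 that did not pass (limma, Benjamini-Hochberg adjusted p = 1.0, SE 0.14). The zinc transporter gene Slc30a4 was 8.77, 8.53 and 8.51 against 7.99, 8.09 and 8.06, a difference of -0.55. Cd209a and Cd209d, close paralogs for lectins of dendritic cells and macrophages, differed by -1.07 and -0.98. Cd209a was 6.53, 7.15 and 5.95 in p53-null and 5.50, 5.52 and 5.39 in mutant samples. Tlr13, which encodes a sensor of bacterial RNA, differed by -0.63, Cd244a, a receptor gene of natural killer cells, by -0.71, and Mill1, a class I-like gene, by -0.87. Wrn, the helicase gene of Werner syndrome, differed by -0.74, Tmem159, a lipid droplet gene, by -0.74, and Lrrtm2, a gene of neuronal synapses, by -0.78. All were lower in each mutant sample than in any p53-null sample, and all had adjusted p of 1.0.

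**Figure D3:**
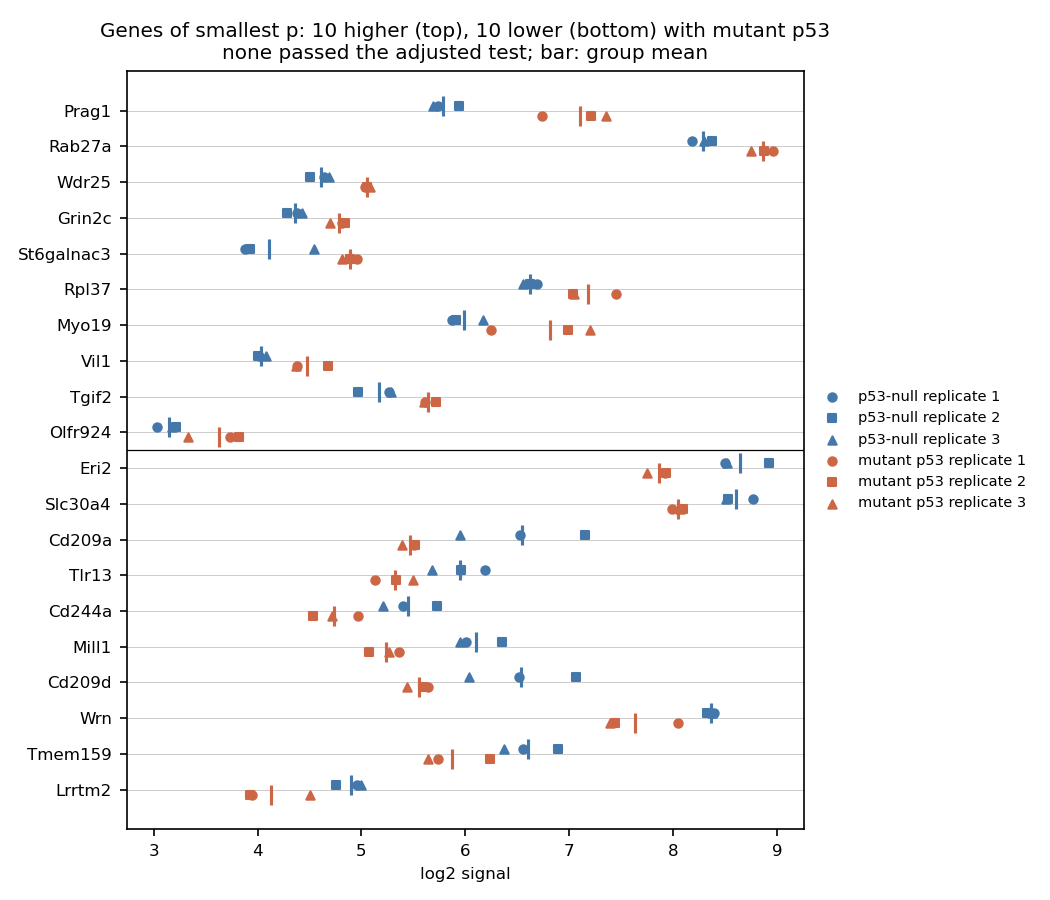
Log2 signal by sample for the 10 genes of smallest unadjusted p on each side, ordered by p. Points are samples, vertical bars are group means, and the groups do not overlap for any of the 20 genes, although none passed the adjusted test.

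The macrophage list lay on the lower side. Of 19 measured genes, 16 had a negative sign, and 6 lay lower in all 3 mutant samples without overlap, beside 3.99% of all features. The median was -0.25, beside 0.002 over all features, and 0 were called. The mean of the list was 7.35, 7.64 and 7.33 in p53-null and 7.28, 7.32 and 7.13 in mutant samples, which did not overlap but came within 0.01. Without p53-null replicate 2, the highest, the median was -0.10. Mertk, a receptor for apoptotic cells, was 6.65, 6.94 and 6.38 in p53-null and 6.27, 5.81 and 5.87 in mutant samples, a difference of -0.67 (95% interval -1.14 to -0.21). The complement gene C1qc differed by -0.32, the Fc receptor gene Fcgr1 by -0.30 and the lysosomal gene Cd68 by -0.28. Fcgr3, chosen after its values were seen, was 6.69, 6.79 and 6.75 against 6.17, 5.94 and 5.84. In bulk tissue, fewer cells of a type and less RNA per cell cannot be told apart.

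Genes of the cell cycle had small positive differences. In the list of G1/S and replication, 27 of 29 measured genes had a positive sign, with a median of 0.17, 2 with an unadjusted p under 0.05 on the higher side (1.35% of all features) and 5 without overlap (3.68% of all features). The origin gene Orc1 was 5.42, 5.37 and 6.02 in p53-null and 6.16, 5.98 and 6.01 in mutant samples, a difference of 0.45 with overlapping groups. The flap endonuclease gene Fen1 was 8.52, 8.79 and 8.98 against 9.11, 9.13 and 9.14, a difference of 0.37. The polymerase gene Pola1 differed by 0.23. The thymidine kinase gene Tk1 differed by 0.63, which was 0.35 without p53-null replicate 1 and 0.94 without p53-null replicate 3. The mean of the list was 8.76, 8.74 and 8.99 in p53-null and 9.04, 8.99 and 8.96 in mutant samples. Replicate 3 of the p53-null group thus lay within the mutant range. The median was 0.13, 0.11 and 0.24 without p53-null replicate 1, 2 and 3.

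In the G2 and M phase list, 28 of 29 had a positive sign and the median was 0.12. On the higher side, 1 had an unadjusted p under 0.05 (1.35% of all features) and 1 lay without overlap (3.68% of all features). The hyaluronan receptor gene Hmmr was 7.84, 7.85 and 8.14 in p53-null and 8.37, 8.16 and 8.32 in mutant samples, a difference of 0.34. The midzone gene Prc1 differed by 0.28 (0.17 without p53-null replicate 1), the anillin gene Anln by 0.36 and the mitotic kinase gene Plk1 by 0.22. Its mean was 9.17, 9.15 and 9.44 in p53-null and 9.48, 9.36 and 9.34 in mutant samples. The p53-null replicate 3 again lay within the mutant range, and the median was 0.21 without it, 0.09 without p53-null replicate 1 and 0.08 without mutant replicate 1. In the list of DNA repair and checkpoint genes, 24 of 28 had a positive sign with a median of 0.08, and Wrn stood on the other side at -0.74. No member of these lists was called. Members of a list share the samples and vary together, so the number with one sign is not separate support.

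**Figure D4:**
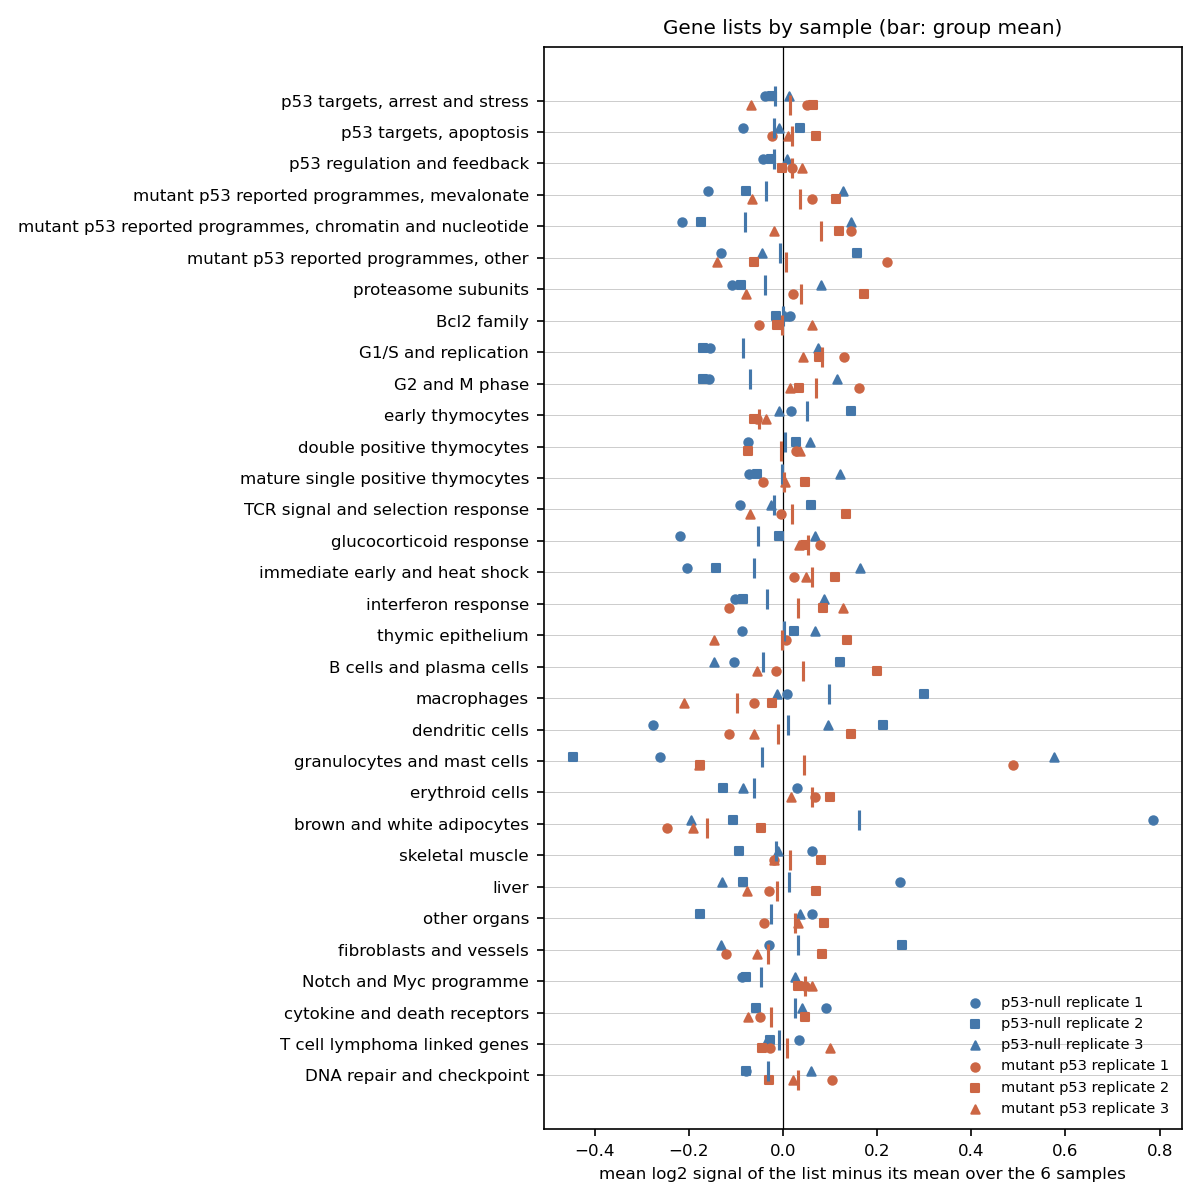
Mean log2 signal of each of 32 gene lists in each sample, after subtracting the mean over the 6 samples. Points are samples and vertical bars are group means. The groups overlap except in the early thymocyte, macrophage and Notch and Myc lists, and the adipocyte list is high in p53-null replicate 1 (6.74 before subtraction).

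Thymocyte stages differed little. For double positive thymocytes the median over 17 measured genes was 0.03 and for mature single positive thymocytes -0.004 over 20 genes. Without p53-null replicate 1 these were -0.02 and -0.06. Dntt, the gene of terminal transferase, was 12.07, 12.07 and 12.23 in p53-null and 12.22, 12.17 and 12.28 in mutant samples, and the chemokine receptor gene Ccr4 differed by -0.32 at a signal below 4. Early thymocyte genes had 12 of 17 negative signs and a median of -0.13, with the adhesion receptor gene Cd44 at -0.41, Bcl11a at -0.30 and Mycn at -0.26. The Notch target gene Dtx1 was at 0.29. The list mean was 6.80, 6.93 and 6.77 in p53-null and 6.72, 6.72 and 6.75 in mutant samples. In the Notch and Myc programme 13 of 16 signs were positive with a median of 0.09, and the nucleotide kinase gene Nme1 differed by 0.33. Means of these last lists and of the macrophage list were the 3 among 35 that did not overlap between groups. The share without overlap over all features was 7.67%. The gaps were narrow. For early thymocytes the lowest p53-null mean was 6.772 and the highest mutant mean 6.746. For the Notch and Myc list the highest p53-null mean was 8.236 and the lowest mutant mean 8.243.

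Programmes that tumour mutants of p53 have been reported to drive showed no called member. In the mevalonate pathway 11 of 14 signs were positive and the median was 0.11, which was 0.02 without p53-null replicate 1. Its squalene synthase gene Fdft1 was 7.12, 7.06 and 7.09 in p53-null and 7.29, 7.35 and 7.18 in mutant samples, a difference of 0.18. Hmgcs1, which encodes an earlier enzyme of the pathway, differed by 0.20. Proteasome subunits had 26 of 29 positive signs with a median of 0.06, and that median was between 0.00 and 0.13 when single samples were left out. The immunoproteasome gene Psmb8 was 10.38, 10.40 and 10.38 against 10.61, 10.65 and 10.49. A list of chromatin and nucleotide genes had 6 of 12 members measured, all of nucleotide metabolism (Tk1, Dck, Dctpp1, Rrm1, Impdh1 and Tyms), with a median of 0.07. The median over 23 other genes of such programmes was 0.01, which was -0.02 without p53-null replicate 1.

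Medians of other lists of signalling and cell types stayed near 0 or moved with single samples. Adipocyte genes had 21 of 24 negative signs and a median of -0.22, which was -0.05 without p53-null replicate 1. The interferon list had a median of 0.03, with the chemokine gene Cxcl10 at 0.38, and the glucocorticoid list 0.04 (0.02 without p53-null replicate 1). The erythroid median was 0.01, and 0.12 without p53-null replicate 1. Its heme synthesis gene Alas2 was 4.73, 4.55 and 4.81 in p53-null and 5.90, 5.19 and 5.01 in mutant samples, a difference of 0.67 (0.40 without mutant replicate 1). Dendritic cell genes had a median of -0.06, B cell genes 0.04, thymic epithelium -0.03 and fibroblasts and vessels -0.04. Without p53-null replicate 1 the dendritic cell median was -0.14 and the B cell median -0.04. Granulocyte and mast cell genes had a median of 0.10, which turned to -0.19 without mutant replicate 1 and to -0.02 without p53-null replicate 1. Medians were -0.01 for genes of T cell receptor signalling, 0.08 for immediate early and heat shock genes, -0.02 for the Bcl2 family, 0.05 for genes linked to T cell lymphoma and -0.004 for cytokines and death receptors. They were 0.02 for skeletal muscle, 0.01 for liver and 0.06 for other organs. Liver members ran from -1.39 to 0.67, and 0 of 22 intervals lay within a 2-fold difference, against 90.1% of all features. Without p53-null replicate 1 the median of immediate early and heat shock genes was 0.02, and those of muscle and liver 0.07 each. All of these lists had 0 called members.

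Some genes with small p lay beside each other on a chromosome, which was seen only after looking at the values. Among the 20 measured genes from Tmc5 to Zp2 on chromosome 7, 6 had an unadjusted p under 0.05 and all 6 were lower with mutant p53, beside 1.82% of the 14805 genes placed in order. No other of 14422 windows of 20 neighbouring genes held as many. They were Eri2 at -0.78, Tmem159 at -0.74, Thumpd1 at -0.52, Zp2 at -0.48, Gde1 at -0.37 and Tmc5 at -0.22. Gde1 was 8.58, 8.53 and 8.55 in p53-null and 8.19, 8.22 and 8.14 in mutant samples.

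Among the 21 measured genes from Wrn to Msr1 on chromosome 8, a run widened by 1 gene after its values were seen, 6 had an unadjusted p under 0.05, beside the same 1.82%. Of these, 5 were lower and Prag1 was higher. Windows of 20 genes within this run held 5 such genes. A negative sign was seen in 17 of the 21, where 50.7% of all features had a positive sign. The glutathione reductase gene Gsr was 8.27, 8.15 and 8.37 in p53-null and 7.94, 7.17 and 7.39 in mutant samples. The tankyrase gene Tnks was 9.86, 9.67 and 9.72 against 9.53, 8.90 and 8.81. In both, as in Wrn at 8.05, 7.45 and 7.39, mutant replicate 1 lay between the p53-null samples and the other mutant samples. Without mdm2, Tnks was 8.90 and 9.74 in the p53-null and 9.06 and 9.81 in the mutant replicates. There the split followed the replicate number in both genotypes and did not run between genotypes. None of these genes was called, and the cause of the runs was not tested.

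**Figure D5:**
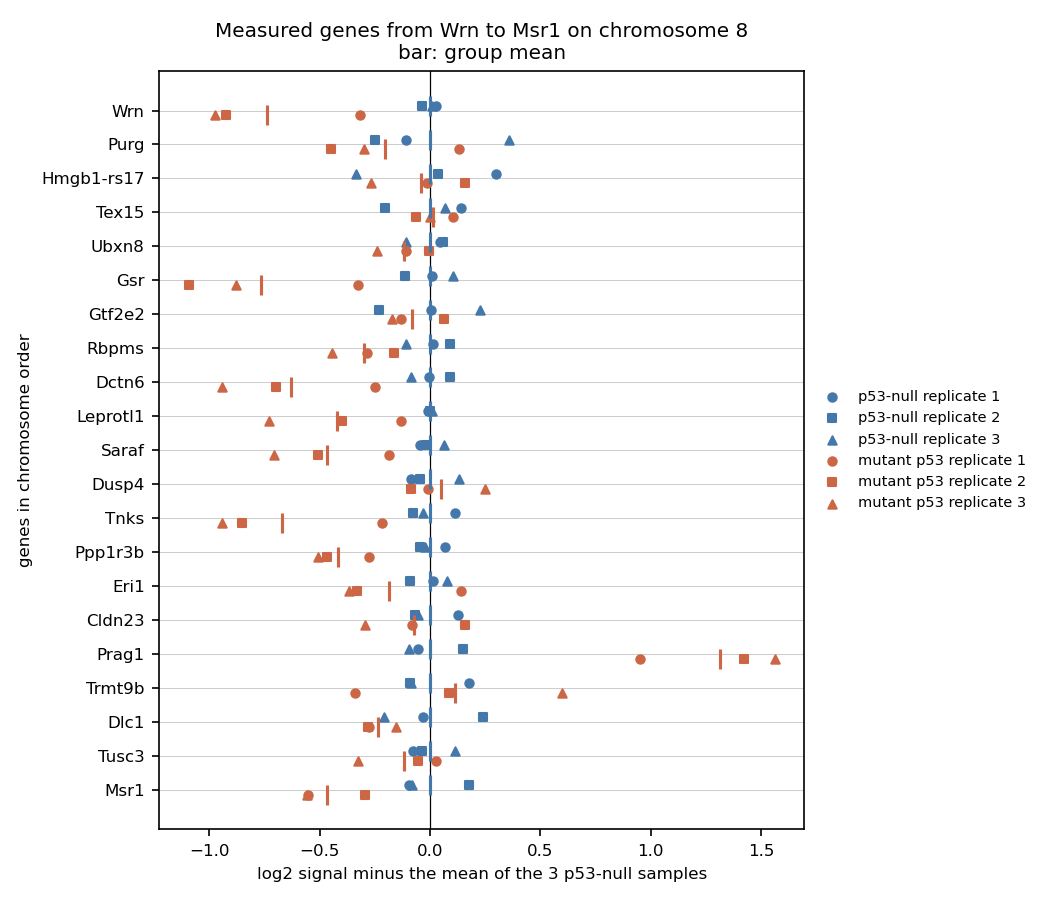
Log2 signal of the 21 measured genes from Wrn to Msr1 on chromosome 8, in chromosome order, minus the mean of the 3 p53-null samples. Points are samples and vertical bars are group means. Prag1 is the one gene with a large positive difference, 1.31, and in Wrn, Gsr and Tnks mutant replicate 1 lies nearer to the p53-null samples than the other mutant samples do.

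Genes around Trp53 on chromosome 11 gave no such run. The 25 nearest measured genes on each side formed a list added after the data were seen. Of these 50 genes, 0 had an unadjusted p under 0.05, a count near the 1.82% of genes placed in order. The median was -0.01, beside 0.002 over all features. Only Cd68 had groups that did not overlap, and it was lower, beside 3.99% of all features. The intervals of 41 of the 50 lay within a 1.5-fold difference, against 64.3% of all features. Wrap53, the neighbour read from the opposite strand, was 8.30, 8.37 and 8.45 in p53-null and 8.37, 8.36 and 8.13 in mutant samples.

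The effect of the mutant allele was also set against that in thymi without mdm2. By limma with Benjamini-Hochberg adjustment, 0 of 23332 features (0%) had a difference between the mdm2 backgrounds that passed, the smallest adjusted p being 0.995, and 997 (4.27%) had an unadjusted p under 0.05. The samples without mdm2 carry other array name prefixes, so that mdm2 genotype cannot be told apart from the set of arrays.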

How the data were processed

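Expression was measured on Affymetrix whole-transcript arrays from total RNA of snap-frozen thymus, per the labels' protocols. The values are the log2 signals of the series' table as deposited by the authors. Processing used Partek 6.5 and build mm8, per the submitters' processing notes; normalization and probe summary are not given in the sources used here. Values were used as they stand, and 0 columns of values were left out. The annotation gave 1 symbol to 14996 of 23332 features, several to 1019 and none to 7317. Where a gene had several features (135 genes), that of highest mean was used.

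All features were tested two-sided with limma 3.58.1 in R 4.3.3 (lmFit, eBayes), 1 mean per group over all 10 samples, which left 6 residual degrees of freedom, with Benjamini-Hochberg adjustment at 0.05. The number of arrays limits the precision. The test was tested on simulated data with 200 changed features.

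The genes named were Mdm2, Cdkn1a, the 10 of smallest unadjusted p on each side (since none was called), the 4 of smallest p in each list, the Y-linked genes, and the 10 by which p53-null replicate 1 lay farthest from the other 5 samples; any others, including defining tissue markers, were chosen after values were seen. The comparison, its tests and its gene lists (34, with 619 of 737 entries measured) were chosen with earlier results of these data known. Alternatives were median centring, quantile normalization, filters on dim features, array weights, an intensity trend, a plain linear model, a fit to the 6 samples, a Y chromosome covariate, a replicate block and leaving out each sample. Same-numbered samples of the 2 groups with mdm2 deviated together with correlations of -0.19, 0.078 and -0.04, so the numbers were not taken as pairs. Gene order and promoters came from RefSeq tables of GRCm38.p6, a build other than the submitters', and served only for names, order and sequence.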

Additional observations from a re-analysis of the deposited data

How the results depend on the processing

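With 3 samples a group, only large differences could be called, and a count of 0 does not show that the genotypes act alike. The count of called features was 0 under median centring, quantile normalization, both filters on dim features, array weights, the intensity trend, the plain linear model and the Y chromosome covariate. It was 1 in the fit to the 6 samples (adjusted p = 0.0204, limma), where the call was a feature without a gene symbol, chosen here after its values were seen. That feature was 6.77, 6.64 and 6.99 in p53-null and 8.81, 8.83 and 8.94 in mutant samples, a difference of 2.06 (SE 0.13 in that fit and 0.49 in the fit to all 10). Without mdm2 it was 7.08 and 8.93 in the p53-null and 7.23 and 8.82 in the mutant replicates. There the split followed the replicate number in both genotypes and did not run between genotypes. Leaving out single samples gave 0 to 1 calls and 525 to 1429 features at an unadjusted p under 0.05. The 1 call came without p53-null replicate 3, on a feature shared by H2-T3, H2-Tw3, H2-T18 and H2-D1 (difference 4.55, adjusted p = 0.00156, limma). For the difference between mdm2 backgrounds the range was 0 to 2, with 1 call without p53-null replicate 3 and, in thymi without mdm2, 2 or 1 without p53-null replicate 1 or 2. Among the 6 samples with mdm2 the numbers did not pair the groups. A replicate block fitted to these 6 gave 0 calls and 895 features at an unadjusted p under 0.05. This check did not cover the 4 samples without mdm2, whose spread entered the main fit without a block. Only 1 of 3 samples correlated best with its own number. Over 162 named genes and 20 other settings, 25 of 3169 differences changed sign, in 14 genes, and none was called. The Y chromosome covariate, which mostly marks p53-null replicate 1, turned Eif2s3y to -0.052, H2-Ab1 to -0.058, H2-Aa to -0.051, Thrsp to 0.38, Taar7b to 0.049, Sry to 0.044, Cdkn2a to 0.14, Kdm6a to 0.019, Eif2s3x to 0.058 and Rrm1 to -0.0023; the cause was not tested. With single samples left out, Mmp13 ranged from -2.34 to 2.08, Eif2s3y from -0.047 to 3.47, H2-Ab1 from -0.061 to 1.14, H2-Aa from -0.059 to 0.86, Thrsp from -0.91 to 0.40, Sry from -0.34 to 0.040, Axl from -0.19 to 0.041, Endou from -0.080 to 0.35, Cdkn2a from -0.53 to 0.14, Notch1 from -0.011 to 0.33, Kdm6a from -0.29 to 0.023 and Eif2s3x from -0.23 to 0.064. Prag1 ranged from 1.19 to 1.49, with adjusted p of 0.0689 or more by limma. Median centring and quantile normalization gave the median difference over all features as 0.0046 and 0.0017.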
